A study of Homo sapiens with 6 samples.

Results

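The protein-coding genes of chromosome 13 were followed in HL-60 cells with reduced EZH2, first as a set that shifted upward and then gene by gene. The members are the rows of the deposited count table with the biotype protein_coding, a position on chromosome 13 and at least 600 counts summed over the 6 libraries. 5 genes were set aside by name, CCNA1, FLT3, SPRY2, EPSTI1 and 1 other, and 3 of these 5 held at least 600 counts. That left 181 members among 321 protein-coding and 1334 rows of any kind on chromosome 13, in a table of 58884 genes. All 181 passed the expression filter and were tested. With all libraries at the control level, SMAD9 (160 counts) and SOHLH2 (587 counts) would have missed the minimum of 600, so these 2 entered through the EZH2 libraries, where they are high. Their values are a description only. The genes were chosen by position, biotype and summed counts, and as a set selected on the upward shift already seen in their fold changes. The size of that shift is therefore a description with no test.

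HL-60, a RAS-mutated line established from acute myeloid leukemia, grows as promyelocyte-like cells. One group of 3 libraries (EZH2 libraries 1, 3 and 4, numbered as in their titles) came from cells stably transduced by lentivirus with a short hairpin RNA (shRNA) against EZH2. The other group of 3 (control libraries 3, 4 and 5) came from cells with a scrambled hairpin in the same kind of vector. Both were selected with puromycin, which was removed 2 days earlier, and both spent the last 24 hours in RPMI medium with 0.05% serum before polyadenylated RNA was taken. The design text speaks of a knock-out, the sample labels of a knockdown, and 53.5% of the control level of EZH2 mRNA remained. Whether separate transductions or cultures stand behind the 3 libraries of each group is not stated, and p-values cover only the library-to-library spread, possibly a technical one. In RNA from whole cultures, fewer cells of a type and less RNA per cell cannot be told apart.

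Chromosome 13 is an acrocentric chromosome with few genes for its length. Its short arm carries repeats of ribosomal RNA genes, and its protein-coding genes lie on the long arm, among them the cell cycle regulator RB1. EZH2 is the catalytic subunit of Polycomb repressive complex 2, which places the repressive mark H3K27me3 on histone H3, often at CpG-rich promoters of developmental genes. Neither DNA copies nor histone marks were among the measurements, and no part of either in the results was tested.

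EZH2 itself was at 147, 150 and 150 CPM (library-size scaled counts, with TMM factors) in control libraries 3, 4 and 5, and at 79.4, 83.2 and 77.2 CPM in EZH2 libraries 1, 3 and 4. The groups did not overlap, and EZH2 fell by 0.90 on the log2 scale (SE 0.04; adjusted p 3.22e-11 by edgeR's quasi-likelihood test). The exact two-sided permutation p over the libraries was 0.1, the smallest that 3 against 3 allow. Total counts ran from 39717343 to 85074624 per library. The 7 promyelocyte markers summed to 10160 to 10970 CPM in controls and 10280 to 10650 CPM in EZH2 libraries. Among them MPO stood at 9293 to 10100 CPM and 9250 to 9649 CPM, and ELANE was at or near 0 in both. The other markers of this list were not all level: PRTN3 stood at 18.8 to 24.1 CPM in controls and 90.5 to 103 CPM in EZH2 libraries, AZU1 at 36.0 to 39.2 and 58.2 to 64.8 CPM, and MYB at 481 to 493 and 539 to 581 CPM. CTSG was lower, at 170 to 178 and 143 to 156 CPM, and CD33 stood at 140 to 145 and 146 to 152 CPM. The part of these markers in the results was not tested. All 10 markers of T cells, erythroid cells and epithelial cells or fibroblasts stayed under 1 CPM, as did the 3 of B cells, and the 3 of monocytes summed to 0.101 to 0.259 CPM in controls and 0.803 to 1.06 CPM in EZH2 libraries. The 4 eosinophil markers CLC, PRG2, EPX and IL5RA summed to 5.68 to 6.20 CPM in controls and 136 to 154 CPM in EZH2 libraries, and the part of this in the results below was not tested.

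Of the 181 members, 115 (63.5%) rose in EZH2 libraries, 13 (7.18%) fell and 53 were not called, at an adjusted p under 0.05. Over all 16859 genes tested, 23.8% rose, 22.9% fell and 53.3% were not called. Without SMAD9 and SOHLH2, 113 of 179 members rose. The median log2 fold change of the members was 0.21, a ratio of 1.16, against 0.01 over all genes tested. It was -0.02 over the 9976 protein-coding genes with at least 600 counts on other chromosomes. The middle 50% of the members lay between 0.06 and 0.42, and the extremes were -1.74 (TNFSF13B) and 2.68 (SMAD9). The shift was broad and small, and 153 members had a fold change above 0, against 51% of all genes. At least 2-fold, 8 members rose and 1 fell, where the share over all genes tested was 4.36% and 2.18%. That background includes low and non-coding genes. Of the 9976 protein-coding genes on other chromosomes, 237 rose and 140 fell at least 2-fold. SMAD9 and SOHLH2, which entered through their EZH2 libraries, are among the 8.

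Each EZH2 library showed the shift. Measured against the mean of the controls on the log2 CPM scale, the median member stood at 0.25 in EZH2 library 1, 0.22 in EZH2 library 3 and 0.21 in EZH2 library 4. Each control against the other controls gave a median between 0.00 and 0.01. In EZH2 libraries 1, 3 and 4, 152, 143 and 153 members lay above the control mean. Members took 1.75%, 1.72% and 1.74% of all counts there, and 1.43%, 1.46% and 1.45% in control libraries 3, 4 and 5. In 118 members every EZH2 library was above every control, and in 16 every one was below, where 27.9% and 27% of all genes behaved so.

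Among the 23 chromosomes, chromosome 13 had the highest median. Chromosome 17 came next, with a median of 0.15 over 624 genes of the same kind, of which 316 rose and 75 fell. The lowest were chromosome 11 at -0.27 and chromosome 2 at -0.33. The spread of single genes around the median was much alike on chromosomes 13 and 17, with an interquartile range of 0.36 in each. This is not particular to them, as it ran from 0.28 to 0.41 over all 23 chromosomes. The difference between chromosomes was not tested.

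**Figure D1:**
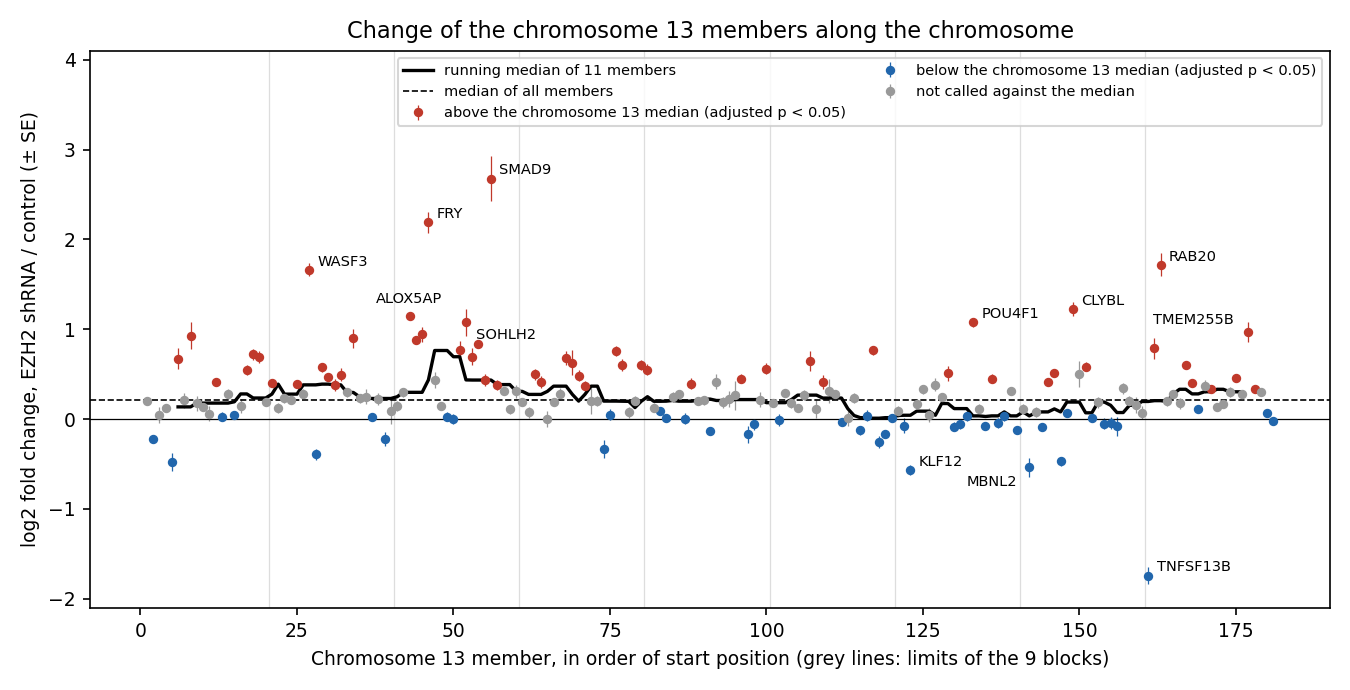
Log2 fold change (EZH2 shRNA over control) with its standard error for each of the 181 members, in order of start position. The black line is the running median of 11 neighbours and the dashed line the median of all members at 0.21. Red members were called above that median and blue ones below it, at an adjusted p under 0.05. The running median stays above 0 throughout, is highest near N4BP2L1 and lowest near DACH1.

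The shift ran along the whole chromosome but was uneven. A running median over 11 neighbouring members was above 0 at 171 of 171 positions. It was highest at N4BP2L1, N4BP2L2 and PDS5B alike (0.76) and lowest at DACH1 and MZT1 alike (0.01). The members were also split in order of start into 8 blocks of 20 and a last block of 21. From the centromere, the block medians were 0.19, 0.26, 0.44, 0.24, 0.21, 0.15, 0.07, 0.10 and 0.30. The third block, HMGB1 to UFM1 at 30.46 to 38.36 Mb, was therefore the highest, and the seventh, PIBF1 to DNAJC3 at 72.78 to 95.79 Mb, the lowest. The third block holds SMAD9 and SOHLH2, which became members through their high EZH2 libraries. SOHLH2 is also among the 11 members around N4BP2L1, so both peaks are partly raised by the rule. Fold changes of adjacent members had a Spearman correlation of 0.22 over 180 pairs, a description only, since neighbours share all 6 libraries and some overlap.

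In the third block 17 members rose, SMAD9 and SOHLH2 among them, none fell and 20 of 20 had a fold change above 0. HMGB1, a chromatin architectural protein and alarmin, opened it at 0.14, and the call rested on a narrow margin (edgeR adjusted p 0.043, lost when any library but EZH2 library 3 was left out). HMGB1 also has many processed copies that may share its reads. Past USPL1 (0.30) came 4 neighbours that rose further: ALOX5AP (1.15), the chaperone gene HSPH1 (0.88), B3GLCT (0.94) and FRY (2.19). The next 4 were smaller: N4BP2L1 (0.44) and N4BP2L2 (0.14) rose, and PDS5B (0.03), a cohesin regulator, and RFC3 (0.00), a subunit of the replication clamp loader, were not called. NBEA (0.76), SOHLH2 (1.08), CCDC169 (0.69), SPART (0.84), RFXAP (0.44) and SMAD9 (2.68) then followed as another run of higher values. The block closed with ALG5 (0.38), EXOSC8 (0.31), SUPT20H (0.11, not called) and UFM1 (0.31). EXOSC8 overlaps both ALG5 and SUPT20H on the opposite strand, and SPART overlaps an antisense RNA. The sources used here do not give the strand setting of the counting, so such reads may be shared.

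In the seventh block 9 members rose, 2 fell and 9 were not called. The transcription factor gene KLF12 was the lowest at -0.57, and its neighbour KLF5 was at -0.07, not called. POU4F1 rose (1.08) while the adjacent RNF219 was at 0.12, which also passed the test (edgeR adjusted p 0.047). DNAJC3, an endoplasmic reticulum co-chaperone gene, fell at the block's end (-0.12, edgeR adjusted p 0.024). The last block, TNFSF13B to CHAMP1 at 108.3 to 114.3 Mb, again had 18 of 21 members higher, from TUBGCP3 (0.11) to RAB20 (1.72). Its first gene, TNFSF13B, was the member that fell most.

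**Figure D2:**
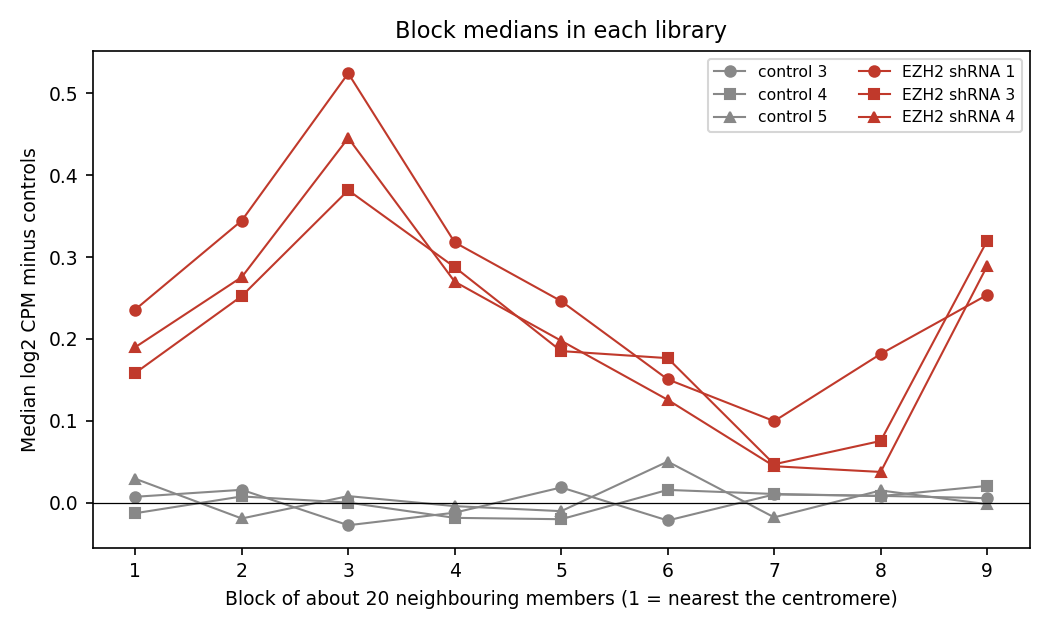
Median over the members of each of 9 position blocks of log2 CPM in 1 library minus the mean of the control libraries (for a control, of the other controls). Controls are grey and EZH2 libraries red, with the title number as the marker shape. All 3 EZH2 libraries peak in the third block (0.52, 0.38 and 0.45) and are low in the seventh (0.10, 0.05 and 0.04), while controls stay near 0.

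The third block was the highest in each EZH2 library by itself. It stood at 0.52, 0.38 and 0.45 in EZH2 libraries 1, 3 and 4, and the seventh at 0.10, 0.05 and 0.04. Values of 1 block differed most between libraries in the third and in the eighth. The eighth stood at 0.18, 0.08 and 0.04, and was the lowest in EZH2 library 4, where the seventh was the lowest in the others. The last block stood at 0.25, 0.32 and 0.29. In all 9 blocks every EZH2 library was above 0.

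The shift was present at every expression level. Fold changes were spread more widely among low genes, here and on other chromosomes. In 4 parts ordered by mean level, the median log2 fold change was 0.38, 0.25, 0.19 and 0.20 from the lowest part to the highest. Over genes of the same kind and the same levels on other chromosomes it was 0.02, -0.04, -0.02 and -0.03. The interquartile range of the members was 0.63 in the lowest part and 0.30 in the highest, against 0.57 and 0.32 on other chromosomes. The median standard error of a member was 0.10 and 0.04. SMAD9 and SOHLH2, which entered through the EZH2 libraries, are in the lowest part. Among the 46 most abundant members 34 (73.9%) rose and none fell. At the same level on other chromosomes 26.8% rose and 35.9% fell. Across members the Spearman correlation of the fold change was -0.15 with mean log2 CPM (n = 181) and -0.03 with the length of the gene on the genome (n = 181), as descriptions over genes that share the same libraries.

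**Figure D3:**
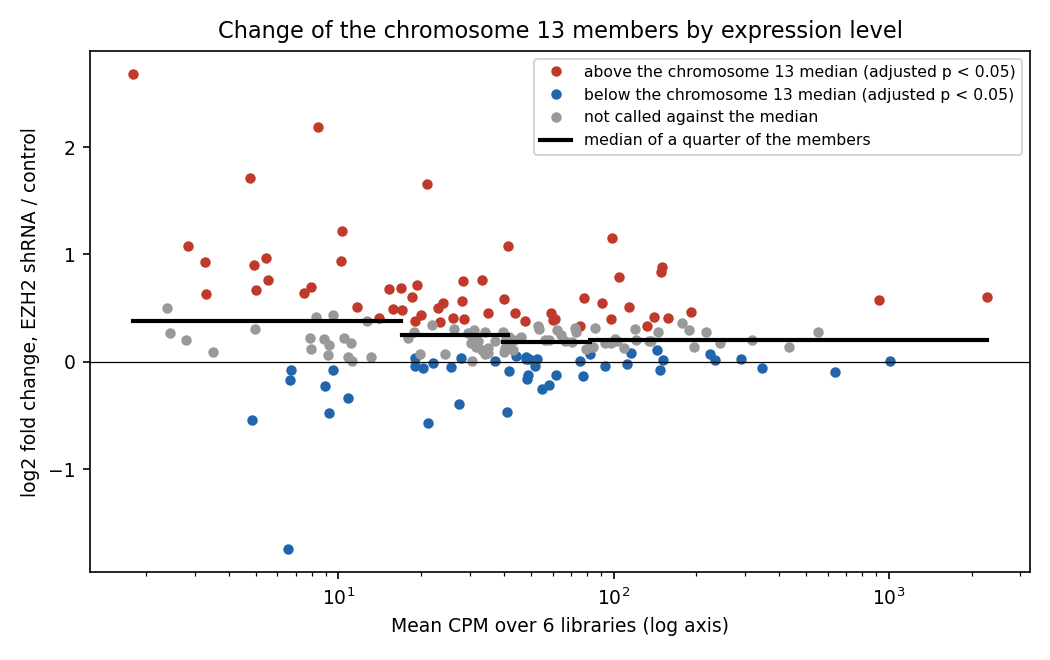
Log2 fold change of each member against its mean CPM over the 6 libraries on a log axis. Black bars are the medians of 4 parts of the members by level (0.38, 0.25, 0.19 and 0.20). Colours mark calls against the chromosome 13 median, and all 4 bars lie above 0.

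The 5 members with the most reads show how unlike the single genes were. TPT1, which encodes the growth-associated protein TCTP, was at 1817, 1804 and 1806 CPM in control libraries 3, 4 and 5 and at 2941, 2569 and 2730 CPM in EZH2 libraries 1, 3 and 4. All EZH2 libraries were clearly higher, and TPT1 rose by 0.60 on the log2 scale (SE 0.05, edgeR adjusted p 6.91e-08). The ribosomal protein gene RPL21 likewise rose by 0.58 (SE 0.05), from 736, 751 and 730 to 1177, 1026 and 1099 CPM. Both genes have processed copies elsewhere in the genome and TPT1 overlaps an antisense RNA, so their reads may be shared. TFDP1, the partner of E2F factors, rose by 0.28 (SE 0.04), close to the shared median.

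LCP1, the leukocyte actin-bundling protein plastin, lay below the shared median. It was at 1020, 999 and 1005 CPM in controls and 1023, 999 and 1025 CPM in EZH2 libraries, ranges that overlap, and its fold change of 0.01 (SE 0.04) was not called. The nuclear import receptor IPO5 was at 669, 662 and 647 CPM against 618, 615 and 623 CPM. Every EZH2 library was lower, though its fold change of -0.09 (SE 0.04) missed the threshold (edgeR adjusted p 0.0684, with 0.0219 to 0.0488 in the 6 alternatives that called it). Per length, in the authors' FPKM, RPL21 (407) and TPT1 (312) stood above LCP1 (203), TFDP1 (148) and IPO5 (65.8).

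To find members that departed from the shared shift, the same fit was repeated with the median of each chromosome removed from the EZH2 libraries. Against that reference, 56 members lay above the chromosome 13 median, 45 below it and 80 were not called. Over all genes tested, each against its own chromosome's median, 24% lay above and 20.6% below. That background includes low and non-coding genes. Of the 9976 protein-coding genes with at least 600 counts on other chromosomes, 2774 lay above and 2780 below. The counts of departures on chromosome 13 are thus no trait of its own. Without SMAD9 and SOHLH2, 54 of 179 members lay above. All 56 members above the median had risen outright. Of the 45 below it, 13 had fallen outright, 31 were not called against 0, and 1, TUBGCP3, had risen by less than the median. The remaining 58 of the 115 members that rose could not be told from the median. The size of the departure was larger in genes with fewer reads (Spearman -0.28 with mean log2 CPM over 181 members). The median is an estimate from the same libraries that the test takes as fixed.

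The promoters of 2 members far above the median (SMAD9, WASF3) and of 2 far below it (GJA3, USP12) are shown because CpG density is a promoter feature tied to Polycomb binding. Each is the 250 bases before the RefSeq start on GRCh38.p14, read 5′ to 3′ on the gene's strand, with every CpG in capitals. SMAD9 (chr13:36920239-36920488, minus strand) has 39 CpG, WASF3 (chr13:26557433-26557682, plus strand) 25, GJA3 (chr13:20161053-20161302, minus strand) 33 and USP12 (chr13:27171812-27172061, minus strand) 37. The SMAD9 stretch lies inside the gene as deposited, whose first base on that strand is 36920765. The 4 are examples and do not stand for all members far from the median.
SMAD9: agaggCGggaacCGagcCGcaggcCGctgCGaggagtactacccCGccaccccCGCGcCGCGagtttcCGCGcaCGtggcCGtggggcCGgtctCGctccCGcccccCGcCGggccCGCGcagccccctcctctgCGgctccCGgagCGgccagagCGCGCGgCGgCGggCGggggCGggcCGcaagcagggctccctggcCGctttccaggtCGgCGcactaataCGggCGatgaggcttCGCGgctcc
WASF3: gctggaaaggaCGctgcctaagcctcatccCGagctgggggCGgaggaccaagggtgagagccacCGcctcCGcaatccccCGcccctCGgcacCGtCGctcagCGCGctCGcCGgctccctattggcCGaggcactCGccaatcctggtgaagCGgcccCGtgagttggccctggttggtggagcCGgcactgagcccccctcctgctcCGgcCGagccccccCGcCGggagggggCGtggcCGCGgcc
GJA3: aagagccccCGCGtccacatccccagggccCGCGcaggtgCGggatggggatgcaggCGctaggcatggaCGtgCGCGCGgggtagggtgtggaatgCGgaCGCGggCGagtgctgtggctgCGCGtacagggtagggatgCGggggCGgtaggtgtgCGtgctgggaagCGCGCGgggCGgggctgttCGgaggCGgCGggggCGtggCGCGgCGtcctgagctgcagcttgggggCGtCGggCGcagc
USP12: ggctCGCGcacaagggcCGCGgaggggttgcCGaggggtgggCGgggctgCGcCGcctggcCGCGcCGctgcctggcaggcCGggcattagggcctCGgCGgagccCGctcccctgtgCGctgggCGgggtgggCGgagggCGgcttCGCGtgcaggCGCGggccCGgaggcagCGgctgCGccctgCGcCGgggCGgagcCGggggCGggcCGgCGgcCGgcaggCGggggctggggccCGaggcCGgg

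CpG-rich promoters lay on both sides of the median. A RefSeq window of 300 bases, which adds the first 50 transcribed bases, was found for 160 members by symbol, and in 141 its start lay within 1000 bases of the start in the deposited table. The median number of CpG (both strands read the same) was 29 in the 45 members above the median with a window, 29 in the 35 below and 29 in the 61 not called. Over all 35116 RefSeq windows it was 14. The fold change had a Spearman correlation of 0.00 with the CpG number and 0.07 with the GC share of the window over the 141 members, as descriptions. The 4 promoters printed are CpG-rich ones: the window holds 50 in SMAD9, 47 in USP12, 37 in GJA3 and 36 in WASF3. Other members far from the median ranged widely, from 3 in ALOX5AP, 4 in GPR183 and 14 in DGKH to 37 in CLYBL and 47 in POU4F1.

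The 10 members farthest above the median were, in order, SMAD9, FRY, RAB20, WASF3, CLYBL, ALOX5AP, SOHLH2, POU4F1, TMEM255B and B3GLCT. SMAD9, a receptor-regulated SMAD of bone morphogenetic protein signalling, was at 0.329, 0.748 and 0.330 CPM in control libraries 3, 4 and 5 and at 3.45, 2.63 and 3.27 CPM in EZH2 libraries 1, 3 and 4. The groups were far apart, with a log2 fold change of 2.68 that stood 2.46 above the chromosome 13 median. It is the member with the fewest counts, 657 in all, of which 66 came from the controls. Its membership, and so its place in this order, rests on the EZH2 libraries. FRY, a large scaffold of microtubules and NDR kinases, was at 2.86, 2.65 and 3.58 CPM in controls and at 12.99, 15.13 and 13.22 CPM in EZH2 libraries. Again no library of one group came near the other, and FRY rose by 2.19 on the log2 scale (SE 0.11, edgeR adjusted p 1.54e-10).

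RAB20, a small GTPase of endosomes and phagosomes, went from 2.58, 1.80 and 2.31 to 7.489, 7.349 and 7.004 CPM, a log2 fold change of 1.72 (SE 0.13). WASF3, a WAVE-family activator of actin branching, went from 9.94, 9.55 and 10.9 to 29.4, 33.2 and 33.2 CPM, a log2 fold change of 1.66 (SE 0.07). In both, the EZH2 libraries lay close together and well above the controls. ALOX5AP, the protein that presents arachidonic acid to 5-lipoxygenase for leukotriene synthesis, was at 61.2, 61.9 and 61.2 CPM in controls and 143, 134 and 133 CPM in EZH2 libraries. Its groups were separate by a wide margin (log2 fold change 1.15, SE 0.04, edgeR adjusted p 2.46e-12). ALOX5AP is made by eosinophils among other leukocytes, and the 4 eosinophil markers given above were higher in the same libraries. Their part in this result was not tested.

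The other members of this group rose by about 2-fold. CLYBL, a mitochondrial lyase gene, rose by 1.22 on the log2 scale, and POU4F1, a transcription factor gene of neurons, by 1.08. SOHLH2, a transcription factor gene of germ cells that entered through the EZH2 libraries, was at 1.08 too. TMEM255B rose by 0.97 and B3GLCT, an endoplasmic reticulum glucosyltransferase gene, by 0.94. Their lowest EZH2 library was above their highest control in every case, which the rule for naming this group required. Levels stayed low for most: in FPKM, averaged over the 6 libraries, SMAD9 was at 0.311 and FRY at 0.443, against 57.4 for ALOX5AP.

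The 10 members farthest below the median were TNFSF13B, KLF12, MBNL2, GJA3, GPR183, USP12, DGKH, MZT1, KATNAL1 and PSPC1, and all 10 also fell outright. TNFSF13B, the B-cell survival cytokine BAFF, was at 9.97, 10.6 and 9.61 CPM in control libraries 3, 4 and 5 and at 2.91, 3.12 and 3.01 CPM in EZH2 libraries 1, 3 and 4. The groups were far apart (log2 fold change -1.74, SE 0.10, edgeR adjusted p 4.79e-10), and no other member fell 2-fold. KLF12, a zinc-finger repressor, went from 24.8, 25.3 and 25.7 to 17.3, 17.1 and 16.9 CPM, with tight groups and a log2 fold change of -0.57 (SE 0.06). GPR183, the oxysterol receptor that guides leukocyte migration, went from 47.6, 46.8 and 48.8 to 34.3, 33.3 and 35.6 CPM (log2 fold change -0.47, SE 0.05). Every EZH2 library was below every control, but GPR183 lies inside UBAC2 on the other strand and reads may be shared.

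The rest of this group fell by less. MBNL2, a splicing regulator, fell by 0.54 on the log2 scale, and GJA3, the lens connexin 46, fell by 0.47. The deubiquitinase gene USP12 fell by 0.39 and the diacylglycerol kinase gene DGKH by 0.33. MZT1, of the gamma-tubulin ring complex, fell by 0.26, and the microtubule-severing gene KATNAL1 and the paraspeckle gene PSPC1 by 0.22 each. For KATNAL1 the fall against 0 passed narrowly (edgeR adjusted p 0.0313) and was lost when any library but EZH2 library 3 was left out. That of DGKH (edgeR adjusted p 0.0113) was lost without control library 5 or EZH2 library 4, and DGKH overlaps the pseudogene MAPK6P3 on the other strand. The departures of these 20 members from the chromosome median kept their direction and call in all 18 alternatives run for them, which did not include other rules for membership. The 20 were picked as the farthest called departures in these same libraries. Little change was therefore likely, and nothing is read from it.

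**Figure D4:**
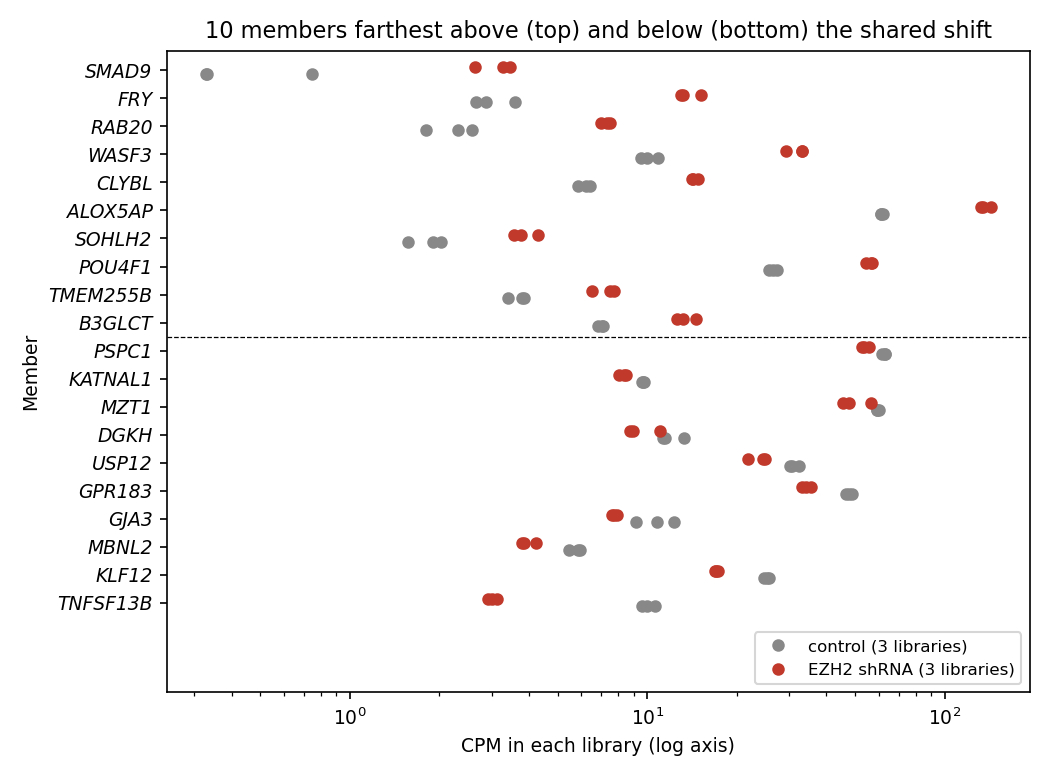
CPM in each library on a log axis for the 10 members farthest above the chromosome 13 median (top) and the 10 farthest below it (bottom). Grey points are the 3 control libraries and red points the 3 EZH2 libraries. No red point crosses a grey one in any of the 20 genes, which for the upper 10 follows from the rule that chose them.

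The 13 members that fell comprise these 10 and RB1, BORA and DNAJC3, named after their values were seen. RB1, the retinoblastoma protein gene that holds back E2F factors, was at 80.9, 81.4 and 80.3 CPM in controls and 74.7, 71.4 and 75.3 CPM in EZH2 libraries. The groups did not overlap, and RB1 fell by 0.13 on the log2 scale (SE 0.04, edgeR adjusted p 0.0138). RB1 overlaps RCBTB2 on the other strand. BORA, an activator of Aurora A kinase, fell by 0.16 and overlaps DIS3 on the other strand.

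The members were also sorted by function into 8 lists, which hold 136 of the 181. Over all 181 members 63.5% rose and 7.18% fell. The share that rose was near this in the lists of chromatin (64%), ubiquitin (63.6%) and vesicle genes (68.2%). It ran from 41.2% to 80% over all lists, and no list was tested against the members. Genes of the cell cycle, replication and repair had the smallest list median, 0.09: 7 of 17 rose and 2 fell (RB1, BORA). Of these 17, 9 lay below the chromosome median and 2, CENPJ and NEK3, above it. CUL4A, a ubiquitin ligase scaffold (0.14), and TUBGCP3, of the gamma-tubulin complex (0.11, edgeR adjusted p 0.0265), rose slightly. The call on TUBGCP3 was lost without any 1 control library or without EZH2 library 4, and CUL4A overlaps PCID2. SKA3 (0.03), CKAP2 (-0.04) and DIAPH3 (-0.12), which act in mitosis, were not called against 0.

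Genes of mitochondria and metabolism had a median of 0.34, with 12 of 16 (75%) higher and none lower, against 63.5% and 7.18% of all members. Their most abundant members rose: esterase D (ESD, 0.28), the phospholipid flippase ATP11A (0.36) and the exporter ABCC4 (0.31). None of these 3 could be told from the chromosome median. Genes of RNA processing and translation had a median of 0.28, again with 12 of 16 higher and none lower. There TPT1 and RPL21 rose, and DIS3, the exosome ribonuclease, was at 0.02, not called.

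Chromatin and transcription genes had a median of 0.19, with 16 of 25 higher and 2 (KLF12, PSPC1) lower. SMAD9, which entered through the EZH2 libraries, is among the 16. GTF3A, the factor that starts 5S RNA transcription, rose by 0.47 but overlaps MTIF3. ARGLU1, a splicing cofactor, rose by 0.21. In the list of ubiquitin, proteasome and chaperone genes, 14 of 22 rose and 2 (USP12, DNAJC3) fell, with a median of 0.24. HSPH1, an HSP70 partner chaperone, went from 103, 107 and 105 to 203, 190 and 189 CPM, a clear separation (log2 fold change 0.88, SE 0.04). The ubiquitin ligase MYCBP2 (-0.06) and the peptidase TPP2 (0.02) were not called against 0, and both lay below the median.

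Vesicle, transport and cytoskeleton genes had a median of 0.18, with 15 of 22 higher and KATNAL1 alone lower. LAMP1, the lysosomal membrane protein, rose by 0.17, close to the shared shift. Myeloid, immune and receptor genes had a median of 0.24, with 7 of 13 higher and 3 (TNFSF13B, GPR183, DGKH) lower. IRS2, the insulin receptor adaptor, went from 71.9, 89.7 and 68.2 to 123, 138 and 137 CPM (log2 fold change 0.79, SE 0.11), and the kinase STK24 rose by 0.41. Only 5 of 35 developmental and adhesion genes reached 600 counts. Of these, POU4F1, CDX2, the cofactor DACH1 (0.77) and LMO7 (0.38) rose and GJA3 fell. A gene with few control counts could enter through a high EZH2 level, so nothing is read from the median of this list. The 45 members in no list had a median of 0.22, with 28 higher and 2 lower.

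The shift was of similar size without the members that overlap another gene on the opposite strand. The 143 members without such an overlap had a median of 0.21, with 89 higher and 9 lower. The 38 with one had a median of 0.30, with 26 higher and 4 lower. Members on the plus strand (88) and on the minus strand (93) had medians of 0.20 and 0.24.

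Other genes of chromosome 13, which the rule did not use, varied by kind. Of 43 long non-coding genes tested, 18 (41.9%) rose and 2 (4.65%) fell, with a median of 0.43, against 0.06 over 1593 such genes elsewhere, of which 16.7% rose and 10.4% fell. Of 22 protein-coding genes with under 600 counts, 11 (50%) rose and none fell, with a median of 0.64. Over 1609 elsewhere the median was 0.24, and 28.5% rose and 11.7% fell. LHFPL6, CYSLTR2, SERTM1 and TNFRSF19 were at or near 0 CPM in the controls and could pass the expression filter only through their EZH2 libraries. Such genes rise by construction, here and elsewhere, so nothing is read from this count or median. Of 76 processed pseudogenes, 9 (11.8%) rose and 10 (13.2%) fell, with a median of 0.01. Over 2480 elsewhere the median was 0.02, and 10.9% rose and 8.79% fell. Reads of processed pseudogenes may come from their parent genes on other chromosomes. At the edge of the rule, SMAD9 (657 counts) and GGACT (790 counts, log2 fold change 0.50) lay just inside, and FAM124A (568 counts, 0.44) and LACC1 (559 counts, 2.16) just outside.

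**Figure D5:**
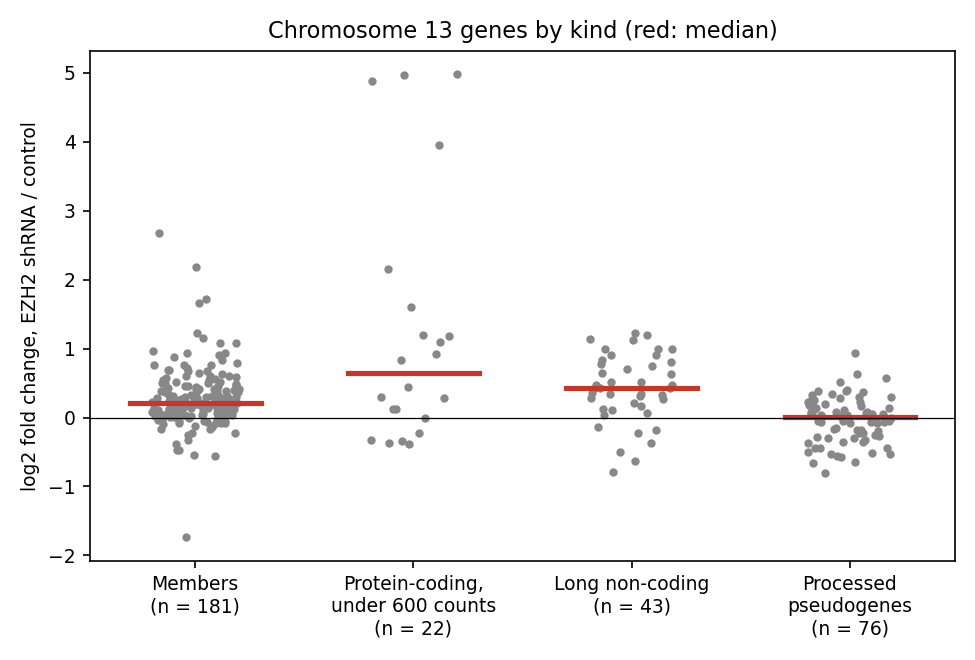
Log2 fold change (EZH2 shRNA over control) of chromosome 13 genes by kind, 1 point per gene, with the median in red. Members (0.21), low protein-coding genes (0.64) and long non-coding genes (0.43) have medians above 0, and processed pseudogenes lie around 0.01. Some low protein-coding genes passed the expression filter only through their EZH2 libraries, which raises their median by construction.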

How the data were processed

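Polyadenylated RNA of HL-60 cells was sequenced as 6 libraries, with a stranded kit and single reads. The authors deposited raw counts per gene and a table of FPKM values, and the FPKM table is not an independent measurement. Per the submitters' processing notes, which give no order, the build was GRCh38 (hg38) and the tools were DESeq2 1.24.0, R 3.6.1, STAR 2.5.2b and Picard 2.18.24. No source used here gives the counting program or how it treated strand. Groups came from the labels. From the counts, 16859 genes passed filterByExpr and were tested with the quasi-likelihood test of edgeR 4.0.16 (R 4.3.3; TMM factors, group as the only term, Benjamini-Hochberg adjustment over all genes, threshold 0.05), after a test on simulated data. Departures used the same fit with each chromosome's median log2 fold change as an offset. Each standard error was computed from a fold change with its F statistic. DESeq2 1.42.0 and limma 3.58.1 gave alternatives. Replicate pairs differed by more than sampling noise (chi-square per degree of freedom 3.02 to 16.0), so all 6 were kept. Counting error alone allows 0.0353 to 0.0759 CPM at a count of 0 (3 counts). The members and lists were chosen with earlier results of these data known. Named were the 10 called members farthest above and below the median with a mean of at least 1 CPM and groups that do not overlap, the 5 most abundant members, the 3 most abundant of each list and those at the threshold. Further genes are named by position or list.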

Additional observations from a re-analysis of the deposited data

How the results depend on the processing

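The member median of 0.21 kept its sign in every alternative. It was 0.24 with upper-quartile factors, 0.19 with TMM factors from genes outside chromosomes 2, 11, 13 and 17, and 0.17 with limma on log2(FPKM + 1), with or without the filter. A pseudocount of 1 shrinks low genes by construction. With members of at least 6000 counts (134 genes), 8 fell. Leaving out 1 library gave a median of 0.20 to 0.22, 101 to 112 higher, 10 to 15 lower, 46 to 57 above the median and 40 to 54 below. Libraries with the same title number shared little deviation (correlations of deviations 0.04 and 0.01 for numbers 3 and 4). Whether equal numbers mark a shared culture or batch is not stated. With the number as a replicate block the median was 0.22, with 112 higher, 12 lower, 50 above and 52 below. Only numbers 3 and 4 occur in both groups, so the group contrast of that fit rests on those libraries alone. Some genes near 0 changed sign and none of these was called. DIS3 was at -0.0053 and LCP1 at -0.011 with the outside factors, as was TPP2 at -0.00442. LCP1 was at -0.0024 by library size alone, and MYCBP2 at 0.013 with the replicate block. With 1 library left out, DIS3 ranged from -0.025 to 0.032, LCP1 from -0.00332 to 0.017 and TPP2 from -0.00216 to 0.027. The cause was not tested. Of the named genes' fold changes, 34 values lost their call, all of HMGB1, KATNAL1, TUBGCP3, DGKH, MZT1 or ARGLU1, and 6, all of IPO5, gained one. In 3 alternatives chosen after seeing the data, the set-aside genes were put back (median 0.22), overlapping members were left out, or each position block's median served as the reference. The last gave 58 members above and 45 below, of which 49 and 34 were the same genes.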
